A study of Mus musculus with 6 samples.

Results

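The genes described here are 10 components and targets of the Hippo pathway: the angiomotins Amot, Amotl1 and Amotl2, the kinase Lats2, the coactivators Yap1 and Wwtr1, the transcription factors Tead1 and Tead2, and the secreted matrix proteins Ccn1 and Ccn2. They stand among 19938 genes that the array annotation names with a single symbol, and each was read from the probeset with the highest mean over all arrays. The genes were chosen by their measured values in part: the set was drawn up because Amot and Ccn1 were higher with valproic acid than without it, so the values of valproic acid against untreated cells are given for all 10 genes as a description, with no test.

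Expression was measured in E14 cells, a mouse embryonic stem cell line, on 6 one-colour Affymetrix arrays. VPA (valproic acid, a branched short-chain fatty acid that inhibits histone deacetylases) was given at 0.5 mM for 16 h to 2 samples. NaBu (sodium butyrate, a straight-chain inhibitor of the same kind) was given at 0.2 mM for 16 h to 2 samples, and 2 samples were left untreated. All samples were kept in serum with leukemia inhibitory factor on mitomycin-C-treated primary embryonic fibroblasts, so each RNA sample may hold fibroblast RNA, and in such a mixture fewer cells of a type and less RNA per cell cannot be told apart. The labels number the samples of each condition 1 and 2 without saying whether they were separate cultures, so p-values measure the spread between these samples only.

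The Hippo pathway restrains organ growth and reads cell contact, polarity and tension. Its kinases Lats1 and Lats2 phosphorylate the coactivators Yap1 and Wwtr1 (also called TAZ) and keep them out of the nucleus, where they would otherwise bind TEAD factors and switch on genes such as Ccn1, Ccn2 and Amotl2. Angiomotins hold Yap1 at junctions and on actin filaments and assist its phosphorylation. In the early mouse embryo this machinery separates the outer trophectoderm, where Yap1 and Tead4 are active in the nucleus, from the inner cell mass that embryonic stem cells are derived from.

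TEAD factors recognise the letters GGAATG, whose reverse complement is CATTCC. RefSeq promoter windows (GRCm38.p6, 250 bases before to 50 after an annotated start) were at hand for 8 of the 10 genes and were searched for these 6 letters on both strands, with overlapping matches allowed. A match was found for 5 of the 8 genes (62.5%), against 16.6% of the 27025 genes with a window and 14.7% of the 32851 windows. Stretches around 4 of these matches are shown because they place the motif near the start of a target (Ccn1, Amotl2) and of both coactivators, with the match in capitals and each sequence read 5′ to 3′ on the strand of its gene.
Ccn1 (chr3:145650059-145650112, minus strand, match from -103): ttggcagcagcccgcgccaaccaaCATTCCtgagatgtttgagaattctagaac
Amotl2 (chr9:102717715-102717768, plus strand, match from -65): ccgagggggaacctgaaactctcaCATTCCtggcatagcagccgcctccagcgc
Yap1 (chr9:8004708-8004761, minus strand, match from -141): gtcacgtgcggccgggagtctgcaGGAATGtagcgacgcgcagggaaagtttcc
Wwtr1 (chr3:57576017-57576070, minus strand, match from -136): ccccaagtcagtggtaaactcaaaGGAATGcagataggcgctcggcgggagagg
The match of Lats2 began at position 5 counted from the start of its window's gene, and another window of Lats2 held none. The windows of Amot, Amotl1 and Tead2 held none. Positions are counted from the annotated start (for Wwtr1 the nearer of 2, the other giving -170), and a match of these letters is a description of the window, not a measured binding site.

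Markers of the labelled cells were present. All 10 embryonic stem cell markers lay above the median of all genes on every array, and so did 15 of the 19 measured feeder fibroblast markers. The summed linear level of the feeder markers was 5142 and 9199 with VPA, 5750 and 9852 with NaBu, and 5720 and 8121 in untreated cells, for samples 1 and 2 of each condition. It was thus higher in sample 2 of every condition, and the lowest feeder marker averaged at the 6.7th percentile of all genes on an array.

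Among the angiomotins, Amot was the member that separated all 3 conditions. Its log2 values were 5.25 and 5.22 with VPA, 4.99 and 4.94 with NaBu, and 4.52 and 4.70 in untreated cells. No array of one condition overlapped those of another, and the order of the groups was VPA, then NaBu, then untreated. The mean with VPA was 5.24 ± 0.02, against 4.61 ± 0.13 in untreated cells (SD, n = 2 each), a log2 difference of 0.63 or 1.54-fold. Samples numbered 1 differed by 0.73 and those numbered 2 by 0.52. NaBu stood at 4.96 ± 0.03 (SD, n = 2), 0.35 above untreated cells or 1.28-fold, with 0.47 between the samples numbered 1 and 0.24 between those numbered 2. The NaBu difference is set against the same untreated arrays that helped to choose Amot. The signal was weak: Amot lay between the 34.4th and the 43.6th percentile of all genes on an array, and the deposited values carry no call of detection.

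Amotl1 and Amotl2, the paralogs of Amot, did not share this pattern. Amotl1 had log2 values of 6.37 and 6.68 with VPA, 6.53 and 6.94 with NaBu, and 6.74 and 6.63 in untreated cells, and every pair of groups overlapped. Its difference from untreated cells was -0.37 between the samples numbered 1 and 0.06 between those numbered 2 for VPA, and -0.21 and 0.31 for NaBu. Amotl2, which binds Yap1 and is itself a reported target of it, had 7.96 and 8.45 with VPA, 7.99 and 8.53 with NaBu, and 8.15 and 8.41 in untreated cells. In every condition sample 2 was the higher of the pair, and the gap between samples of a condition was larger than any gap between the means of the groups.

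Lats2, the kinase that phosphorylates Yap1 and Wwtr1 and a reported target of their activity, varied least. Its values were 6.15 and 6.28 with VPA, 6.15 and 6.17 with NaBu, and 6.28 and 6.15 in untreated cells, a range of 0.13 over the 6 arrays.

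**Figure D1:**
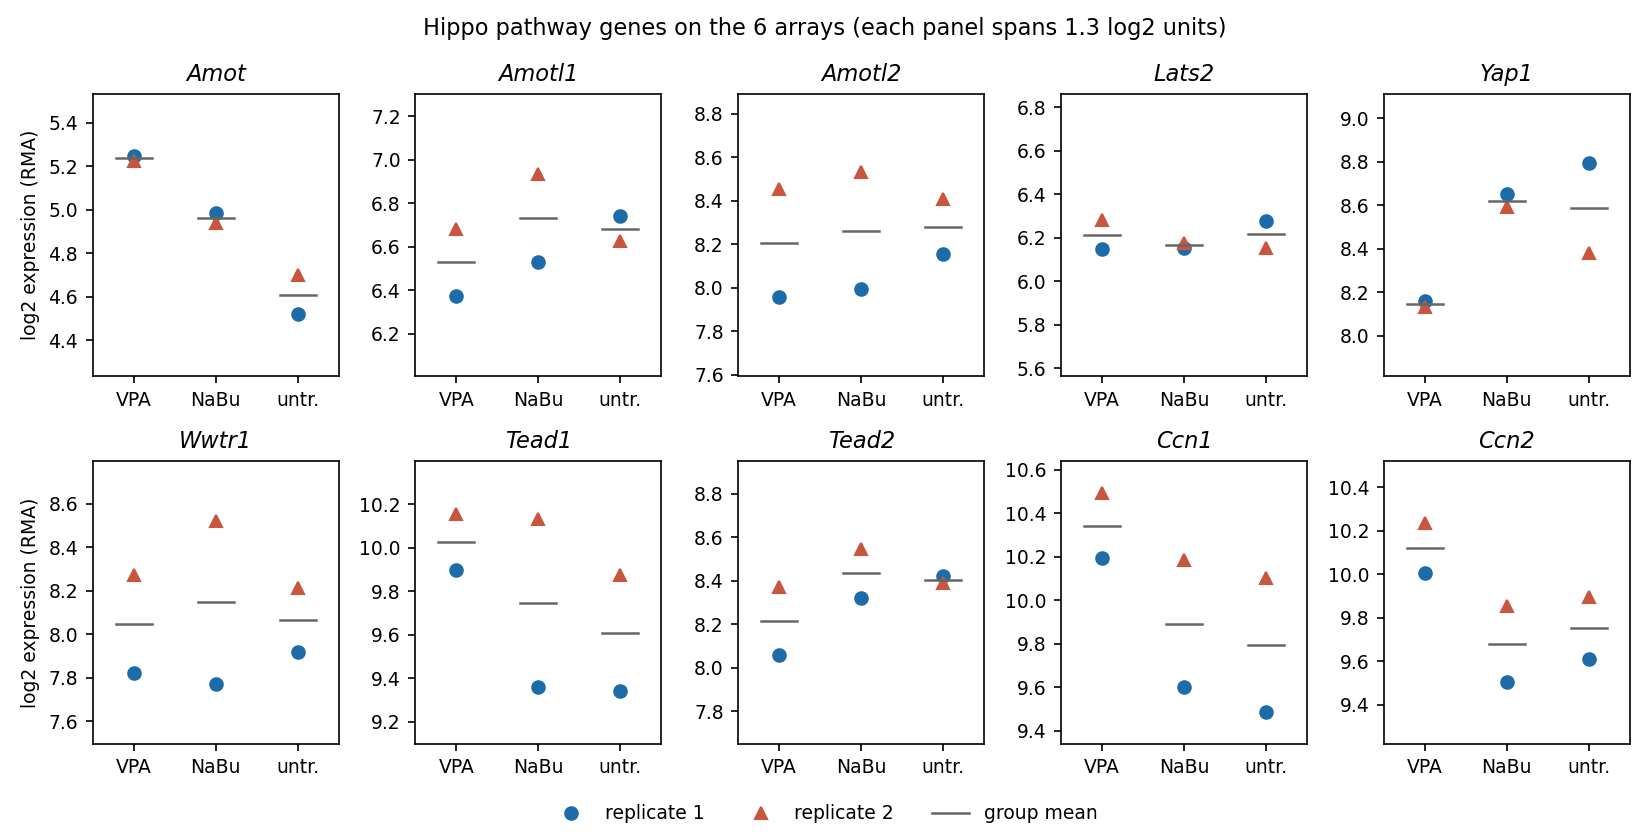
Log2 expression (RMA values as deposited, vertical axis) of the 10 genes in VPA, NaBu and untreated (untr.) samples; circles are sample 1, triangles sample 2 and grey lines the group mean of 2 samples, and every panel spans the same number of log2 units. Amot steps down over VPA, NaBu and untreated cells, Yap1 is lowest on both VPA arrays, and Amotl2, Wwtr1, Tead1, Ccn1 and Ccn2 are higher in sample 2 of every condition.

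Of the coactivators, Yap1 was lower with VPA and Wwtr1 was not separated from untreated cells. Yap1 had log2 values of 8.16 and 8.13 with VPA, 8.65 and 8.59 with NaBu, and 8.80 and 8.38 in untreated cells. Both VPA arrays lay below the other 4, while the NaBu arrays fell between the untreated ones. The mean with VPA was 8.15 ± 0.02, against 8.59 ± 0.29 in untreated cells (SD, n = 2 each), a log2 difference of -0.44 that was -0.64 between the samples numbered 1 and -0.25 between those numbered 2. Wwtr1 had 7.82 and 8.27 with VPA, 7.77 and 8.52 with NaBu, and 7.92 and 8.21 in untreated cells, so its groups overlapped fully and the spread within each was 0.21 or more (SD, n = 2).

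The TEAD factors, which carry the DNA-binding domain that Yap1 and Wwtr1 lack, differed from each other. Tead1 had log2 values of 9.90 and 10.16 with VPA, 9.36 and 10.13 with NaBu, and 9.34 and 9.88 in untreated cells. The VPA arrays lay above the untreated ones by a narrow margin, since VPA sample 1 stood only just above untreated sample 2, and the log2 difference of the means was 0.42, with 0.55 and 0.28 within the samples numbered 1 and 2. A second, dimmer probeset of Tead1 gave 8.46 and 8.60 with VPA, 8.12 and 8.73 with NaBu, and 8.12 and 8.54 in untreated cells. On it the VPA and untreated arrays overlapped and the difference was 0.21. Tead2, the family member described as prominent in early mouse embryos, had 8.06 and 8.37 with VPA, 8.32 and 8.54 with NaBu, and 8.42 and 8.39 in untreated cells. Its VPA arrays lay below the untreated ones, but in the samples numbered 2 by only 0.02.

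Ccn1 and Ccn2, matrix proteins formerly called Cyr61 and Ctgf and the usual readouts of Yap1 activity, were both higher with VPA and near untreated levels with NaBu. Ccn1 had log2 values of 10.19 and 10.49 with VPA, 9.60 and 10.18 with NaBu, and 9.49 and 10.10 in untreated cells. The VPA arrays lay above all others, by 0.01 in the closest case, and sample 2 exceeded sample 1 in every condition. Its mean was 10.34 ± 0.21 with VPA, against 9.79 ± 0.44 in untreated cells (SD, n = 2 each), a difference of 0.55 or 1.46-fold, with 0.70 and 0.39 within the samples numbered 1 and 2. Ccn2 was not named as a reason for the choice of the set, but the set was chosen with earlier results of these data known. It had log2 values of 10.004 and 10.24 with VPA, 9.51 and 9.85 with NaBu, and 9.61 and 9.90 in untreated cells. The VPA arrays again lay above the other 4, and the difference from untreated cells was 0.37 or 1.29-fold, with 0.40 and 0.34 within the samples numbered 1 and 2. Beside these values, the summed feeder level was 5142 and 9199 with VPA, against 5720 and 8121 in untreated cells, and its part in the differences of Ccn1 and Ccn2 was not tested. The difference also moved with the untreated array used: without untreated sample 1 it was 0.24 for Ccn1 and 0.22 for Ccn2, and without untreated sample 2 it was 0.86 and 0.51.

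**Figure D2:**
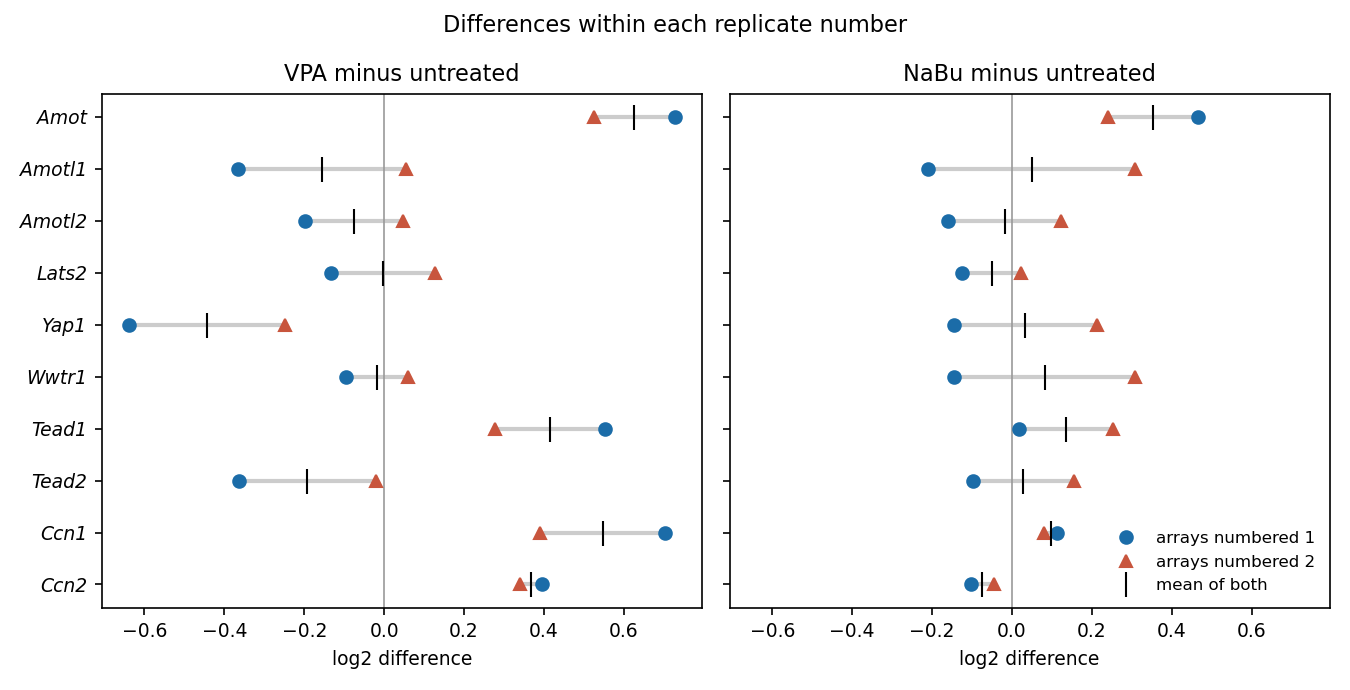
Log2 differences of VPA minus untreated (left) and NaBu minus untreated (right) for the 10 genes, between the samples numbered 1 (circles), between those numbered 2 (triangles) and their mean (bars). With VPA, Amot, Tead1, Ccn1 and Ccn2 lie above 0 and Yap1 and Tead2 below 0 in both; with NaBu, Amot is at 0.47 and 0.24, Tead1 at 0.02 and 0.25, and the means of all genes but Amot lie between -0.07 and 0.14. Both panels use the same untreated arrays.

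Counted over the set, 4 of the 10 genes were higher with VPA in both numbered comparisons, against 32.0% of all genes, and 2 were lower, against 28.0%. Both VPA arrays lay above both untreated arrays for 4 genes (19.1% of all genes) and below them for 2 (15.6%). Nothing is read from these shares, since the contrast helped to choose the genes. The median log2 difference of the set was -0.01, beside 0.01 over all genes, with 4 members above 0 and 6 below. The values ran from -0.44 (Yap1) to 0.63 (Amot). Across all 19938 genes limma called 0 (0%) for VPA at an adjusted p under 0.05, and 981 had an unadjusted p under 0.05 (4.92%). Stem cell markers were lower beside these values: the 10 had a median of -0.30 with VPA, 9 of them lower in both numbered comparisons, and their summed linear level was 23745 and 22724 with VPA, against 28758 and 25716 in untreated cells. Trophectoderm markers summed to 1195 and 1055 with VPA, 661 and 1045 with NaBu, and 551 and 952 in untreated cells. Of these 8 markers, 3 lay above the median of all genes on every array. With VPA, Tfap2c stood at 0.95, Krt8 at 0.75 and Krt18 at 0.51. Cdx2, Gata3, Elf5, Eomes and Hand1 stood between -0.02 and 0.18. The part of such shifts in the values of the 10 genes was not tested. The 5 genes with a TEAD motif in the promoter window stood at 0.55 (Ccn1), -0.08 (Amotl2), -0.44 (Yap1), -0.02 (Wwtr1) and -0.00 (Lats2). The 3 without it stood at 0.63 (Amot), -0.16 (Amotl1) and -0.19 (Tead2). The only values above 0 were those of Ccn1 and Amot, which prompted the choice of the set, so nothing is read from this split.

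For NaBu against untreated cells, limma (Benjamini-Hochberg adjustment over all genes) called 0 of 19938 genes (0%), and hence none of the 10. At an unadjusted p under 0.05 it found 311 genes, which is 1.56% of all, and of the 8 genes other than Amot and Ccn1 that count held none. Amot and Ccn1 are left out of this count because they were chosen on the same untreated arrays, and for that reason nothing is read from their place in the counts that follow. Higher values in both numbered comparisons were found for 3 genes (Amot, Tead1 and Ccn1), against 29.1% of all genes, and lower values for Ccn2 alone, against 23.1%. Arrays did not overlap for Amot alone on the higher side (12.7% of all genes) and for none of the 10 on the lower side (11.2%). The 95% intervals of the differences from untreated cells were -0.36 to 0.42 for Yap1, -0.51 to 0.36 for Ccn2, -0.58 to 0.85 for Tead1 and -0.60 to 0.76 for Wwtr1. The interval of Tead1 for NaBu held the 0.42 seen with VPA, and the interval of Yap1 did not hold the -0.44 seen with VPA. The VPA values have a spread of their own and share the untreated arrays, so no difference between the compounds is read from this. The median of the 10 genes was 0.04, beside 0.01 over all genes. Feeder markers had a median of 0.16 with NaBu, and 12 of the 19 (63.2%) were higher in both numbered comparisons, against 29.1% of all genes. Their part in the NaBu values was not tested.

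The compounds were given at different doses, so VPA and NaBu are set side by side and not ranked. Yap1 averaged 8.15 with VPA and 8.62 with NaBu, a difference of -0.48 (95% interval -0.86 to -0.09), and no array overlapped. Ccn2 averaged 10.12 with VPA and 9.68 with NaBu, a difference of 0.44 (95% interval 0.01 to 0.88), again with no overlap. In both genes the adjusted p of limma was 0.998, so neither passed. With the sample number as a term in the model, the intervals were -0.78 to -0.18 for Yap1 and 0.19 to 0.69 for Ccn2. The adjusted p of limma was then 0.364 for Yap1 and 0.362 for Ccn2, so neither gene passed there. Both belong to a set chosen with earlier results of these data known, so their values are not an independent look at VPA. No gene of the 19938 passed in this comparison (0%), and 724 had an unadjusted p under 0.05 (3.63%), among them Yap1 and Ccn2. Amot and Ccn1 were 0.27 and 0.45 higher with VPA than with NaBu, given without a test because VPA arrays helped to choose them. Higher values in both numbered comparisons were found for 4 of the 10 genes (27.5% of all genes) and lower ones for 4 (28.6%). Higher arrays without overlap were found for 3 of the 10 genes (Amot, Ccn1 and Ccn2), against 16.0% of all genes, and lower ones for Yap1 alone, against 14.6%. Amot and Ccn1 stand in both counts of higher values, so nothing is read from those counts.

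The contrast between the numbered samples was not named as a reason for the choice of genes, but the set was chosen with earlier results of these data known. Within each condition sample 2 was set against sample 1 in a limma model with the condition as a term. Tead1, Ccn1, Wwtr1 and Amotl2 were higher in sample 2, by 0.52 (95% interval 0.26 to 0.78, adjusted p 0.0247), 0.50 (0.27 to 0.73, adjusted p 0.0181), 0.50 (0.25 to 0.75, adjusted p 0.0251) and 0.43 (0.21 to 0.65, adjusted p 0.0276) on the log2 scale. The 4 genes are 4 of the 10, against 6.04% of all genes called higher, and none of the 10 was called lower, against 5.56%. These shares are larger among brighter genes. With the fit limited to the 9969 genes at or above the median level, which hold 9 of the 10, 1283 were called higher and 1361 lower. Each of the 4 genes was higher in sample 2 in all 3 conditions, as was Ccn2, which stood at 0.29 (0.09 to 0.49, adjusted p 0.0718). Same-direction shifts in all 3 conditions were found in 23.2% of all genes on the higher side and 23.5% on the lower. Amot stood at 0.03 (-0.18 to 0.25), Lats2 at 0.01 (-0.21 to 0.23) and Yap1 at -0.17 (-0.41 to 0.08), and Yap1 was lower in sample 2 in every condition.

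All 4 calls were lost without NaBu, and some without another condition. Leaving out either NaBu array, which takes NaBu out of this contrast, gave adjusted p-values of 0.135 for Tead1, 0.101 for Ccn1, 0.137 for Wwtr1 and 0.147 for Amotl2, with differences of 0.40, 0.46, 0.37 and 0.38, and 716 genes were called in all, against 2313 (11.6%) with every array. Without either untreated array Tead1 (adjusted p 0.0668) and Ccn1 (0.0842) were lost, Wwtr1 (0.0252) and Amotl2 (0.0381) passed, and 1370 genes were called. Without either VPA array Amotl2 (0.0596) was lost, while Tead1 (0.00723), Ccn1 (0.00813) and Wwtr1 (0.0333) passed. Feeder markers moved the same way: 9 of 19 were called higher in sample 2 and none lower, with a median of 0.35, and Col1a1, the main chain of type I collagen, stood at 1.098 (adjusted p 0.00145). Of the 10 stem cell markers, Nanog alone was called, at -0.47 (adjusted p 0.0269), with a median of the list of -0.13. The part of feeder RNA in the difference between the numbered samples was not tested.

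**Figure D3:**
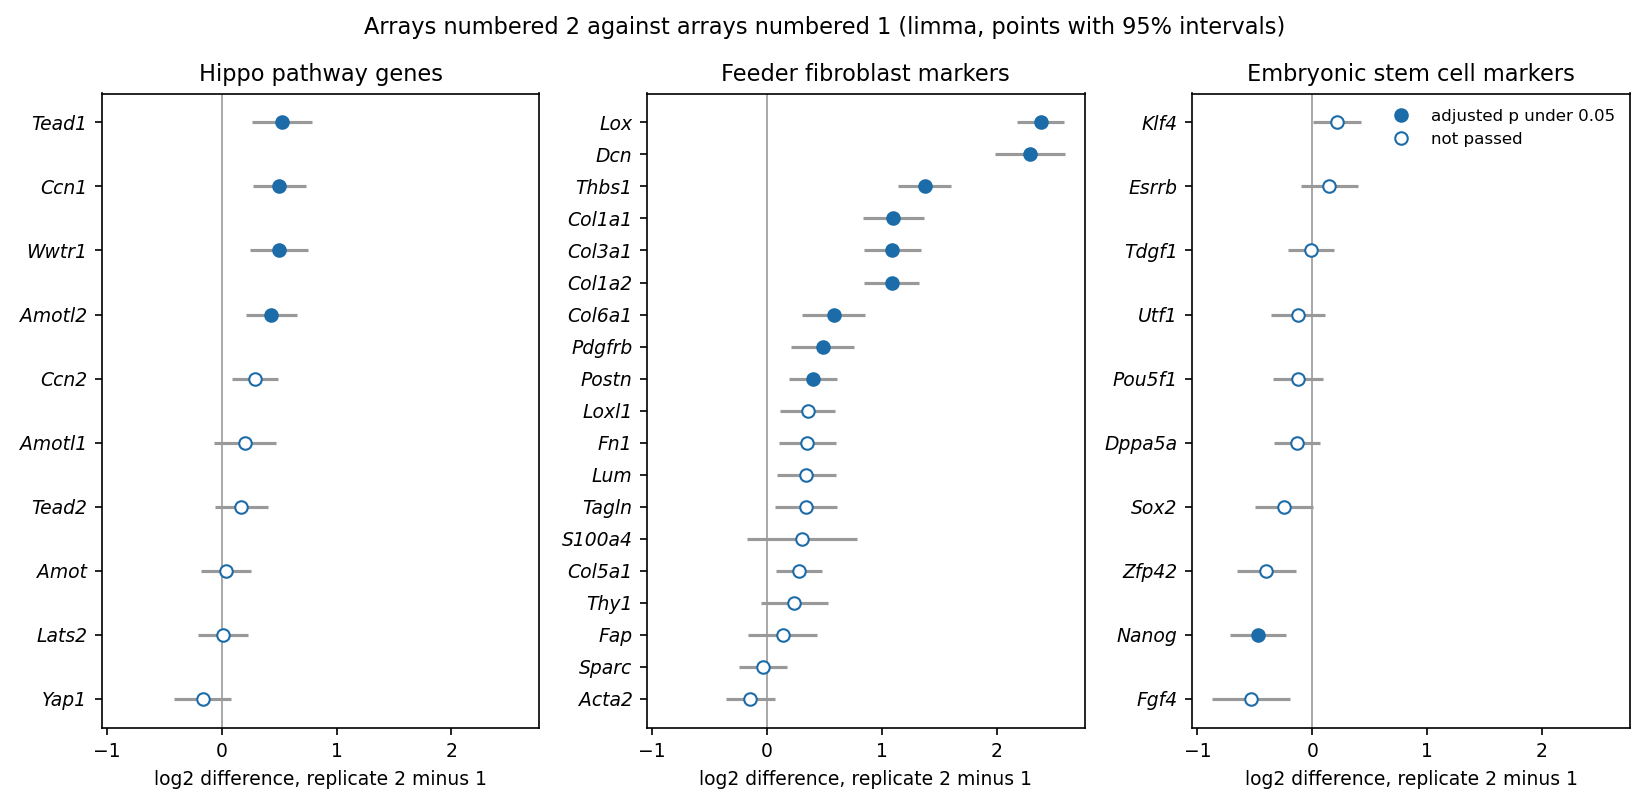
Log2 difference of sample 2 minus sample 1 with 95% intervals from limma for the 10 Hippo pathway genes (left), 19 feeder fibroblast markers (middle) and 10 embryonic stem cell markers (right); filled points passed an adjusted p of 0.05 over all genes. Tead1, Ccn1, Wwtr1 and Amotl2 lie between 0.43 and 0.52, below Col1a1 at 1.098, and Amot and Lats2 lie at 0.03 and 0.01.

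The wider pathway was followed in 4 lists, from which 79 measured genes were not among the 10. None passed limma in VPA or NaBu against untreated cells. With VPA their median was 0.06, beside 0.01 over all genes, and 27 (34.2%) were higher and 16 (20.3%) lower in both numbered comparisons, against 32.0% and 28.0% of all genes. With NaBu the median was 0.05, with 30 (38%) higher and 14 (17.7%) lower, against 29.1% and 23.1%. The 10 genes are counted again in the lists that follow.

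Upstream of the kinases, 38 of 41 listed junction and polarity genes were measured. With VPA 14 (36.8%) were higher and 11 (28.9%) lower in both numbered comparisons, against 32.0% and 28.0% of all genes. With NaBu 11 (28.9%) were higher and 7 (18.4%) lower, against 29.1% and 23.1%. Crb2, a Crumbs protein of the apical membrane, had log2 values of 5.56 and 5.84 with VPA, 4.80 and 5.37 with NaBu, and 5.12 and 5.18 in untreated cells. Its VPA arrays lay above all others, 0.55 above untreated cells. Dlg5, a scaffold of the Scribble group, stood at -0.29 with VPA and -0.01 with NaBu. With NaBu the largest statistics of the list, the 3 angiomotins aside, were those of Limd1, a LIM protein that binds Lats kinases, at -0.25 (95% interval upper end 0.02), and the tight junction scaffold Mpdz at 0.23. Nf2, the tumour suppressor merlin that recruits Lats kinases to the membrane, stood at -0.17 with VPA and 0.04 with NaBu, and Ptpn14, a phosphatase that retains Yap1 in the cytoplasm, at -0.12 and 0.09.

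Among the core kinases and adaptors, 17 of 20 listed genes were measured. With VPA 4 (23.5%) were higher and 1 (5.88%) lower in both numbered comparisons, against 32.0% and 28.0% of all genes. With NaBu 8 (47.1%) were higher and 2 (11.8%) lower, against 29.1% and 23.1%. Stk38l, an NDR kinase related to Lats1, stood at 0.32 with VPA and 0.08 with NaBu, and Map4k5, of the family that activates Lats kinases, at -0.28 and -0.07. Lats1 itself stood at -0.00 and 0.15, the upstream kinase Stk4 (Mst1) at 0.10 and 0.09, and its adaptor Sav1 at 0.02 and 0.11. Stk3, the partner of Stk4, is not analysed here because no probeset carried its symbol alone.

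All 10 listed coactivators, TEAD factors and Vgll cofactors were measured. Tead4, the TEAD factor needed for trophectoderm, had log2 values of 6.86 and 6.69 with VPA, 6.89 and 6.85 with NaBu, and 7.10 and 6.92 in untreated cells. Both treated groups lay below the untreated arrays, at -0.23 for VPA and -0.14 for NaBu (95% interval for NaBu up to 0.17), and both are set against the same untreated arrays. Vgll3 and Vgll4, cofactors that bind TEADs, stood at 0.23 and 0.06 with VPA and at 0.19 and 0.20 with NaBu. Cdx2 and Gata3, trophectoderm factors downstream of Tead4 in the embryo, stood at 0.14 and 0.18 with VPA and at -0.04 and 0.21 with NaBu.

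Of 31 genes reported as Yap1 or Wwtr1 targets, mostly in human cells, 29 were measured, with a median of 0.01 with VPA. In both numbered comparisons with VPA 9 (31.0%) were higher and 4 (13.8%) lower, against 32.0% and 28.0% of all genes. With NaBu 14 (48.3%) were higher and 4 (13.8%) lower, against 29.1% and 23.1%. Ccn1 and Ccn2 are part of these counts. Crim1, a transmembrane protein that binds bone morphogenetic proteins, had log2 values of 7.71 and 7.41 with VPA, 7.51 and 7.34 with NaBu, and 7.26 and 7.05 in untreated cells, so both treated groups lay above the untreated one. The differences were 0.40 with VPA and 0.27 with NaBu (95% interval for NaBu up to 0.65). Birc5, the mitotic inhibitor of apoptosis survivin, stood at -0.35 with VPA and -0.29 with NaBu, and Edn1, endothelin, at 0.18 and 0.28. Ankrd1, an ankyrin-repeat protein of muscle often read beside Ccn1, stood at 0.12 and 0.14, and the receptor kinase Axl at 0.13 and 0.15. Between the numbered samples 8 of the 29 were called higher in sample 2, against 6.04% of all genes, and 3 lower, against 5.56%, with Axl at 1.13 (adjusted p 0.000938) and Ankrd1 at 0.56 (adjusted p 0.0198), beside Col1a1 at 1.098.

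**Figure D4:**
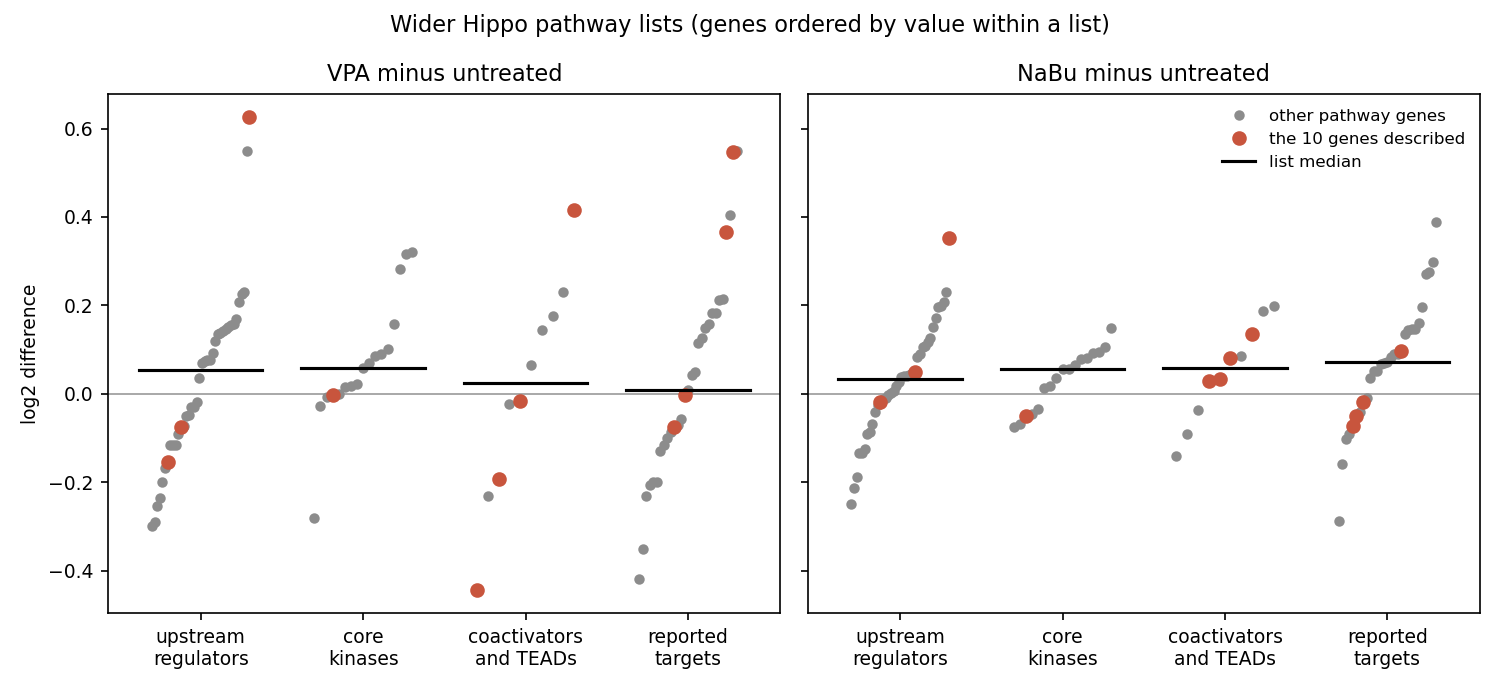
Log2 difference of each measured gene in the 4 Hippo pathway lists for VPA minus untreated (left) and NaBu minus untreated (right), ordered by value within a list; red points are the 10 genes described, grey points the other pathway genes and black lines the list medians, and a gene may stand in 2 lists. Amot at 0.63 and Ccn1 at 0.55 lie at the upper end of their lists with VPA, as does Igfbp3 at 0.55 among the reported targets. Yap1 at -0.44 lies at the lower end of its list, while the list medians with VPA lie between 0.01 and 0.06. With NaBu Igfbp3 stands at 0.39 and Ccn1 at 0.10.

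The genes whose levels ran most closely with the leading members were found by Pearson's r over the 6 arrays among 6040 named genes with a range of at least 0.5. For Amot they were Cog6, a subunit of a Golgi tethering complex (r = 0.973), the chloride-proton exchanger Clcn5 (0.969) and Lnpk, which shapes endoplasmic reticulum junctions (0.966). For Ccn1 they were the adhesion protein Nfasc (0.998), the trans-Golgi protein Tgoln1 (0.998) and Serinc5 (0.997), and for Ccn2 the integrin chain Itgb3 (0.996), the vesicle cargo protein Tmed7 (0.995) and Glb1l2 (0.990). Clcn5 followed the order of Amot, with 7.75 and 7.74 with VPA, 7.32 and 7.51 with NaBu, and 6.88 and 7.17 in untreated cells. Itgb3 had 7.09 and 7.37 with VPA, 6.48 and 6.97 with NaBu, and 6.62 and 7.00 in untreated cells, with the higher value in sample 2 of each condition as in Ccn2. These values are the highest of 6040 over 6 arrays that share conditions and sample numbers, and they describe likeness only. Pou5f1, which encodes the stem cell factor Oct4, had 11.12 and 11.13 with VPA, 11.68 and 11.56 with NaBu, and 11.90 and 11.63 in untreated cells. Its group means ran in the opposite order to those of Amot, but its NaBu and untreated arrays overlapped.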

How the data were processed

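The deposited table holds 6 arrays as log2 signals by probeset. The submitters' processing notes, per the labels, name RMA and Affymetrix Expression Console 1.1, so normalization and the summary over probes were done by the authors. No source used here states further settings or the genome build. Of 35556 probesets, 23410 were in the array annotation, 21789 with 1 symbol and 1621 with several (not used). The probeset with the highest mean stood for each of 19938 genes. Array medians lay between 5.71 and 5.79 over these genes, and the number of arrays limits the precision.

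The model was limma's (3.58.1, under R 4.3.3, with lmFit, eBayes without trend, 1 mean per group, 3 residual degrees of freedom, and 2 for the contrast of sample 2 with sample 1) with Benjamini-Hochberg adjustment over all genes. On simulated data with changes larger than those of the 10 genes, the condition to pass was that the mean estimate lay near the added change. Whether the model would call differences of the size seen in the 10 genes was not tested. Intervals of 95% come from these fits. The 10 genes and the lists were chosen with earlier results of these data known. Named genes were the 10, per list the 2 largest absolute statistics for VPA and the 2 for NaBu, 13 genes in any case, and the 3 most correlated genes for Amot, Ccn1 and Ccn2. Promoter sequences are RefSeq's (GRCm38.p6). Alternatives were a replicate block, each array left out, median centring, quantile normalization, a filter on dim genes, probeset means, an intensity trend and fits of 2 groups.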

Additional observations from a re-analysis of the deposited data

How the results depend on the processing

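No gene was called for VPA, NaBu or VPA against NaBu under any alternative. The fit with the replicate block, in which the sample number is a term, also called 0 genes in each, with 2636, 916 and 2150 at an unadjusted p under 0.05 against 981, 311 and 724 without it. It narrowed the NaBu intervals to -0.18 to 0.46 for Tead1 and -0.22 to 0.39 for Wwtr1, and those of Limd1 (-0.49 to -0.01), Crim1 (0.02 to 0.52) and Birc5 (-0.53 to -0.04) then left out 0, at an adjusted p of 0.994 each. The labels do not say that the numbers pair the samples, but deviations of same-numbered arrays from their group means correlated with r = 0.558 for VPA and untreated, 0.693 for NaBu and untreated, and 0.567 for VPA and NaBu.

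With each array left out, the median of the 10 genes ran from -0.156 to 0.191 for VPA, from -0.174 to 0.252 for NaBu and from -0.216 to 0.230 for VPA minus NaBu, where median centring gave -0.040 and the filter on dim genes, which drops Amot, -0.057. These fits leave 1 array in a group, so the difference between sample numbers enters them. For NaBu minus untreated the ranges were -0.154 to 0.253 (Amotl1), -0.286 to 0.250 (Amotl2), -0.114 to 0.012 (Lats2), -0.175 to 0.242 (Yap1), -0.292 to 0.457 (Wwtr1), -0.249 to 0.521 (Tead1), -0.083 to 0.140 (Tead2), -0.210 to 0.405 (Ccn1) and -0.248 to 0.100 (Ccn2). For VPA minus NaBu they were -0.326 to 0.211 (Amotl2), -0.018 to 0.115 (Lats2), -0.474 to 0.275 (Wwtr1) and -0.106 to 0.665 (Tead1). For VPA minus untreated they were 0.240 to 0.855 (Ccn1), 0.148 to 0.682 (Tead1), 0.223 to 0.512 (Ccn2) and -0.651 to -0.234 (Yap1), each with its ends set by leaving out an untreated array, and Amotl2 (-0.325 to 0.174), Wwtr1 (-0.242 to 0.208) and Lats2 (-0.069 to 0.065) changed sign.

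For sample 2 minus sample 1 the count of called genes ran from 716 to 2434 with an array left out, and median centring turned the split of 1204 higher and 1109 lower into 1060 and 1507. Amot (-0.037 to 0.077 with an array left out, -0.005 with median centring) and Lats2 (-0.052 to 0.078, -0.030 with median centring, -0.021 with quantile normalization) changed sign there, and Ccn2 passed with quantile normalization (0.334, adjusted p 0.0463), the filter (0.0341) and the trend (0.018). The cause was not tested.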
